A study of Rattus norvegicus with 4 samples.

Results

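Eicosanoids are lipid mediators made from arachidonic acid, and the enzymes that make them were followed in the synovium of rats with osteoarthritis. Of the 17899 rat genes in the expression table, 10 were taken by their symbol, and each had 1 row. Of these, 5 belong to the prostaglandin branch (Ptgs1, Ptgs2, Ptges, Ptgis and Hpgds) and 5 to the leukotriene or lipoxygenase branch (Alox5, Alox5ap, Alox15, Lta4h and Ltc4s). There were 4 bulk RNA libraries of synovium, the lining tissue of the joint. AdMSC 1 had an injection of human AdMSCs, and SyMSC 1 one of human SyMSCs. These abbreviations are commonly used for mesenchymal stem cells of adipose tissue and of synovium, and the labels give no longer form. PBS 1 and PBS 2 had an injection of PBS, a buffered salt solution. All 4 libraries carry the disease label osteoarthritis, and synovium was collected a day after the human cells were given. The titles pair AdMSC 1 with PBS 1 by the word Ad and SyMSC 1 with PBS 2 by the word Sy. They also call the injected libraries inj and the PBS libraries mix, and what mix means is not explained, so the PBS groups rest on the treatment label; PBS is not named in the title of the series, whose wording sets synovium after injection beside synovium before it. The sources used here do not give how the disease was induced, the strain, sex and age of the rats, how many rats gave each library or the interval after PBS. It is therefore unknown whether the libraries are separate animals, and p-values measure only the spread between these libraries, which may be technical. In the injected arm that spread also holds any difference between the AdMSC and SyMSC injections.

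Free arachidonic acid enters either branch. The cyclooxygenases Ptgs1 and Ptgs2 turn it into prostaglandin H2, which terminal synthases convert to products such as prostaglandin E2, prostacyclin, prostaglandin D2 or thromboxane. In the other branch Alox5, helped by the membrane protein Alox5ap, makes leukotriene A4. Lta4h converts that intermediate to leukotriene B4, an attractant of neutrophils, and Ltc4s converts it to the cysteinyl leukotriene C4. Prostaglandin E2 and leukotriene B4 are well known in inflamed joints.

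Levels are TPM, shares of the rat transcripts of a library corrected for gene length, so that genes can be compared with each other. TPM keeps no read depth, so no counting interval can be given, and low values are imprecise by an unknown amount. The labels name human cells but no step that separated human from rat reads, so whether human reads were counted under rat genes was not tested. The number of genes at 1 TPM or more was lowest in SyMSC 1 (12582) and highest in PBS 1 (13155). The synovial lubricin gene Prg4 stood at 4191.95 TPM in AdMSC 1, 2447.84 TPM in SyMSC 1, 3930.26 TPM in PBS 1 and 3765.20 TPM in PBS 2, so this defining marker of synovium was abundant in every library. Arm values below are mean ± SD over n = 2 libraries. Log2 changes are differences in log2(TPM + 1), a scale that makes changes of low genes look smaller, tested with limma, the 2 injected libraries against the 2 PBS libraries. A gene was called at a Benjamini-Hochberg adjusted p under 0.05 over the 13371 genes tested.

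Synovium that had received human cells had more transcript of the inducible cyclooxygenase Ptgs2 and of Alox5ap and Lta4h, and less of Ltc4s, Alox5, Ptges and Ptgs1. Neither branch moved as a block. In the prostaglandin branch Ptgs2 rose and Ptgs1 and Ptges fell among the 4 members that could have been called in either direction, and in the leukotriene branch 2 of 5 rose and 2 fell. Hpgds, the fifth prostaglandin member, was also called lower, but it passed the filter of 1 TPM in 2 libraries through the PBS libraries alone, so it could enter the test only by being lower after injection. The 7 called among the 9 members without Hpgds are to be read beside a background in which 48.4% of all tested genes were called, 23.7% higher and 24.7% lower. The libraries of the injected and PBS groups did not overlap for the same 7 of 9 members, and this was so for 78.8% of all tested genes. The median log2 change was -0.51 over those 4 prostaglandin members, -0.20 over the leukotriene branch and 0.000870 over all genes tested. Of the 10 members, 9 reached 1 TPM in every library.

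**Figure D1:**
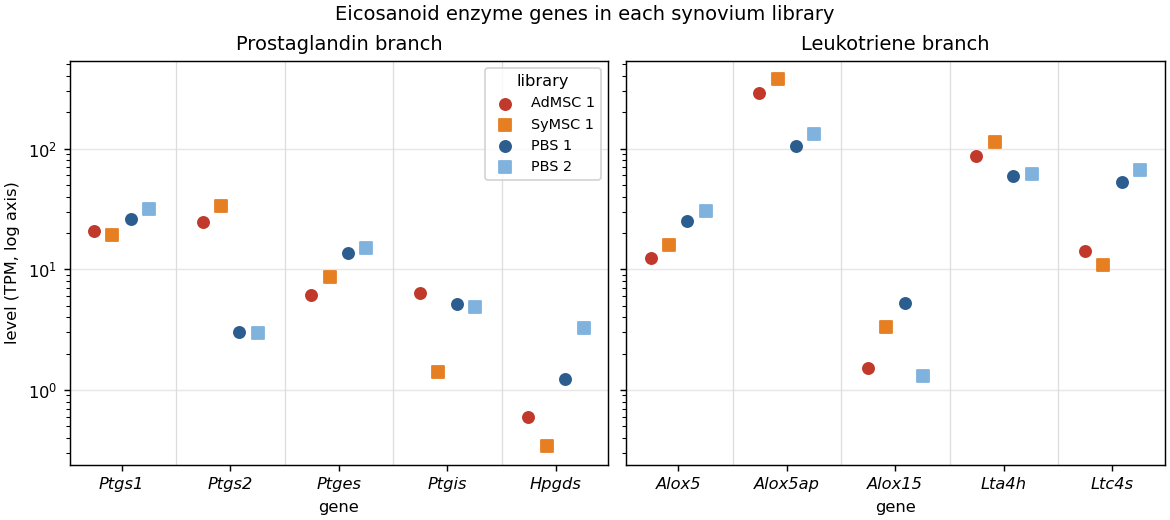
Level of each enzyme gene (TPM, log axis) in the 4 libraries, with the prostaglandin branch on the left and the leukotriene branch on the right; each point is 1 library. Ptgs2 lay at 24.68 and 33.27 TPM in the injected libraries and near 3 TPM in the PBS libraries, while Ltc4s lay at 14.27 and 10.89 TPM against 53.12 and 66.73 TPM.

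Ptgs2 (gene ID 29527) encodes the cyclooxygenase that cytokines and bacterial products induce. It was measured at 24.68 TPM in AdMSC 1 and 33.27 TPM in SyMSC 1, against 3 TPM in PBS 1 and 2.94 TPM in PBS 2. Both injected libraries lay far above PBS, whose libraries were nearly equal. The means were 28.975 ± 6.07 TPM over the injected libraries and 2.97 ± 0.0424 TPM over the PBS libraries, a ratio of 9.76 (log2 change 2.90, SE 0.18, limma adjusted p = 0.000304). Ptgs2 was called in limma with every alternative tried, with log2 changes between 2.69 (without SyMSC 1) and 3.23 (pseudocount of 0.1). Ptgs1 (gene ID 24693), the cyclooxygenase present in most resting tissues, went the other way and by much less. It stood at 20.74 TPM in AdMSC 1 and 19.24 TPM in SyMSC 1, against 26 TPM in PBS 1 and 31.72 TPM in PBS 2 (log2 change -0.50, SE 0.15, limma adjusted p = 0.0333). Each injected library was below each PBS library, and on the log2(TPM + 1) scale AdMSC 1 lay -0.31 from PBS 1, where PBS 2 lay 0.28 from PBS 1. The Ptgs1 call ended in limma without AdMSC 1 (adjusted p = 0.0636), without SyMSC 1 (0.112), without PBS 2 (0.193) and with no filter on low values (0.0569). For every member, an exact permutation test over 2 against 2 libraries could not give a two-sided p below 0.333.

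The ratio of Ptgs2 to Ptgs1 within a library does not depend on how the library was scaled. It was 1.19 in AdMSC 1 and 1.73 in SyMSC 1, against 0.115 in PBS 1 and 0.0927 in PBS 2. Ptgs2 was thus the more abundant cyclooxygenase transcript after injection of either cell source and the minor one with PBS. Its share of the summed TPM of the prostaglandin branch was 42.2% in AdMSC 1 and 52.8% in SyMSC 1, against 6.13% in PBS 1 and 5.08% in PBS 2. The sum itself differed little, at 58.49 and 62.96 TPM in AdMSC 1 and SyMSC 1, against 48.94 and 57.87 TPM in PBS 1 and PBS 2.

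The stretches of rat DNA just upstream of the cyclooxygenase genes are shown because the pair moved in opposite directions. Each is the 250 bases before the annotated start, written 5′ to 3′ on the gene's strand, from RefSeq's GRCr8 assembly; the submitters' processing notes name another build, Rnor_6.0. Capitals mark matches to 6 motifs searched on both strands, among which matches may overlap. The E box was searched as CACGTG, which reads the same on both strands. The motif of C/EBP factors was searched as TTNNGNAAT. For the TATA box, the site that places the start of many genes, TATAAA was used. For the GC box, a site of Sp1 factors that is common near starts, GGGCGG was used. The NF-kB motif was searched by its usual consensus. The core of the cyclic AMP response element (CRE) was searched as TGACG.
Ptgs2 (chr13:64713813-64714062, plus strand): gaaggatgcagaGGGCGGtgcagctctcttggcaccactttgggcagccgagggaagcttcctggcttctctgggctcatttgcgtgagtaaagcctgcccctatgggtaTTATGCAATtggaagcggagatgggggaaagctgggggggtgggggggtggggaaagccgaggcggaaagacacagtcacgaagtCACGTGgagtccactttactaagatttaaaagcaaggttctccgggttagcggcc
Ptgs1 (chr3:39981169-39981418, plus strand): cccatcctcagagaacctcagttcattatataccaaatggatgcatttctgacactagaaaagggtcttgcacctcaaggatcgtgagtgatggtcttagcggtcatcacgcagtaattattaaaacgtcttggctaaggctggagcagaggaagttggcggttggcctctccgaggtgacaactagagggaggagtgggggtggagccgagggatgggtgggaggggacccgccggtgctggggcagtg
The Ptgs2 stretch held an E box 55 to 50 bases before the start, a C/EBP motif 140 to 132 bases before it and a GC box 238 to 233 bases before it. The Ptgs1 stretch held none of the 6 motifs. Of 33469 rat promoters of the same length, 5.59% held the E box, 10.9% the C/EBP motif, 30.5% the GC box, 18.2% the CRE core, 12.9% the TATA box and 6.33% the NF-kB motif. The motifs were chosen after the sequences were seen, so the shares over all promoters cannot show that a match here is unusual. The matches describe these letters and were not tested as binding sites.

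None of the 3 terminal synthases among the members, Ptges, Ptgis and Hpgds, was called higher with Ptgs2. Ptges (gene ID 59103), the inducible synthase of prostaglandin E2 that is usually described as coupled to Ptgs2, stood at 6.15 TPM in AdMSC 1 and 8.70 TPM in SyMSC 1, against 13.58 TPM in PBS 1 and 15.13 TPM in PBS 2. The groups did not overlap, and Ptges averaged 7.43 ± 1.80 TPM over the injected libraries and 14.4 ± 1.10 TPM over the PBS libraries (log2 change -0.88, SE 0.19, limma adjusted p = 0.0114). It was called lower in limma with every alternative tried. The within-library ratio of Ptgs2 to Ptges was 4.01 in AdMSC 1 and 3.82 in SyMSC 1, against 0.221 in PBS 1 and 0.194 in PBS 2, so the order of the synthase and the cyclooxygenase was turned round in the injected libraries. Transcripts of the other synthases of prostaglandin E2 did not fall. Ptges3, the cytosolic synthase that is also the p23 co-chaperone, stood at 112.58 and 88.27 TPM in AdMSC 1 and SyMSC 1, against 70.20 and 63.32 TPM in PBS 1 and PBS 2 (log2 change 0.57, limma adjusted p = 0.0258). Its call ended without AdMSC 1 (0.0812), PBS 1 (0.0569) or PBS 2 (0.122) and with no filter (0.0535). Ptges2, a membrane-associated form, had overlapping groups at 15.49 and 12.85 TPM in AdMSC 1 and SyMSC 1, against 13.87 and 12.73 TPM in PBS 1 and PBS 2, and was not called (log2 change 0.08, limma adjusted p = 0.687).

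Hpgds (gene ID 58962), the haematopoietic prostaglandin D2 synthase found in mast cells and macrophages, was the lowest of the members after injection. It was measured at 0.60 TPM in AdMSC 1 and 0.34 TPM in SyMSC 1, against 1.22 TPM in PBS 1 and 3.23 TPM in PBS 2. The PBS libraries differed more from each other in TPM than PBS 1 did from either injected library. The limma call (log2 change -1.07, SE 0.33, adjusted p = 0.0389) ended without AdMSC 1 (0.0902), SyMSC 1 (0.162) or PBS 2 (0.0828), and with no filter on low values (0.0796). Without PBS 2 the log2 change was -0.60. Smarcad1 overlaps Hpgds in the GRCr8 gene models and was not called (10.95 to 17.19 TPM over all libraries), and the sources used here do not state the use of strand in counting. Ptgds, the other prostaglandin D2 synthase, was listed at 0 in 3 libraries and at 0.21 TPM in PBS 2.

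Ptgis (gene ID 25527), prostacyclin synthase of vessel walls and fibroblasts, did not separate the groups. It stood at 6.32 TPM in AdMSC 1 and 1.41 TPM in SyMSC 1, against 5.14 TPM in PBS 1 and 4.85 TPM in PBS 2, so that AdMSC 1 was the highest library and SyMSC 1 the lowest. It was not called (log2 change -0.51, SE 0.57, limma adjusted p = 0.496). Without AdMSC 1, where SyMSC 1 alone stood for the injected arm, limma called it lower (log2 change -1.31, adjusted p = 0.0116). Tbxas1, thromboxane synthase, which is abundant in platelets and macrophages, is another branch end from prostaglandin H2 and was higher in both injected libraries. It stood at 86.24 and 76.61 TPM in AdMSC 1 and SyMSC 1, against 25.74 and 32.65 TPM in PBS 1 and PBS 2 (log2 change 1.46, SE 0.16, limma adjusted p = 0.00111). Of 7 other prostanoid synthase genes, 6 were tested. Limma called 4 higher (Tbxas1, Akr1b8, Prxl2b and Ptges3) and 0 lower, beside 23.7% and 24.7% of all tested genes. Their median log2 change was 0.74. At an unadjusted p under 0.05 limma gave 0 lower.

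**Figure D2:**
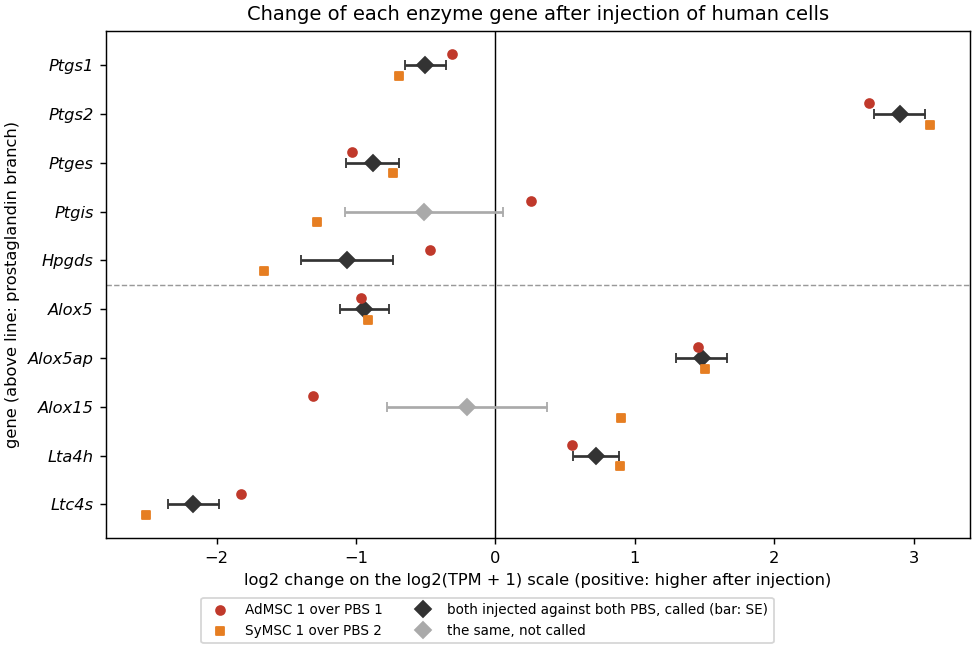
Log2 change of each enzyme gene on the log2(TPM + 1) scale, with both injected libraries against both PBS libraries as diamonds (bars: SE from limma; grey: not called) and each title pair as points. Title pairs lie on the same side of 0 for every gene except Ptgis (0.25 in the Ad pair, -1.28 in the Sy pair) and Alox15 (-1.31 in the Ad pair, 0.90 in the Sy pair).

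In the leukotriene branch transcripts of the partner protein rose while those of the enzyme it serves fell. Alox5ap (gene ID 29624), the membrane protein that presents arachidonic acid to Alox5, was the most abundant member in every library. It stood at 289.49 TPM in AdMSC 1 and 374.94 TPM in SyMSC 1, against 105.25 TPM in PBS 1 and 131.24 TPM in PBS 2. The means were 332 ± 60.4 TPM over the injected libraries and 118 ± 18.4 TPM over the PBS libraries, a ratio of 2.81 (log2 change 1.48, SE 0.18, limma adjusted p = 0.00163). Alox5 (gene ID 25290), which catalyses the first steps of leukotriene synthesis, stood at 12.45 TPM in AdMSC 1 and 15.76 TPM in SyMSC 1, against 25.23 TPM in PBS 1 and 30.60 TPM in PBS 2. Its groups did not overlap, and its means were 14.1 ± 2.34 TPM over the injected libraries and 27.9 ± 3.80 TPM over the PBS libraries (log2 change -0.94, SE 0.17, limma adjusted p = 0.00622). The title pairs gave Alox5 nearly the same log2 change, -0.96 in the Ad pair and -0.91 in the Sy pair. The ratio of Alox5ap to Alox5 was 23.3 in AdMSC 1 and 23.8 in SyMSC 1, against 4.17 in PBS 1 and 4.29 in PBS 2. The libraries of an arm were nearly equal in this ratio.

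Transcripts of the enzymes that compete for leukotriene A4 also parted. Lta4h (gene ID 299732), leukotriene A4 hydrolase, which makes leukotriene B4, was measured at 86.71 TPM in AdMSC 1 and 114.56 TPM in SyMSC 1, against 58.92 TPM in PBS 1 and 61.11 TPM in PBS 2 (log2 change 0.72, SE 0.16, limma adjusted p = 0.0128). Both injected libraries were above PBS, and the call was lost in limma only without PBS 1 (adjusted p = 0.0504) among the alternatives. Ltc4s (gene ID 114097), leukotriene C4 synthase, was measured at 14.27 TPM in AdMSC 1 and 10.89 TPM in SyMSC 1, against 53.12 TPM in PBS 1 and 66.73 TPM in PBS 2. It showed the largest fall among the members, to 12.6 ± 2.39 TPM after injection, against 59.9 ± 9.62 TPM with PBS, which is 4.76 times higher (log2 change -2.17, SE 0.18, limma adjusted p = 0.000555). The ratio of Lta4h to Ltc4s was 6.08 in AdMSC 1 and 10.5 in SyMSC 1, against 1.11 in PBS 1 and 0.916 in PBS 2. Transcripts of the hydrolase were thus in excess after injection and about equal to those of the synthase with PBS. Mgat4b overlaps Ltc4s in the GRCr8 gene models; it was not called and lay between 29.25 and 32.61 TPM in all libraries.

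**Figure D3:**
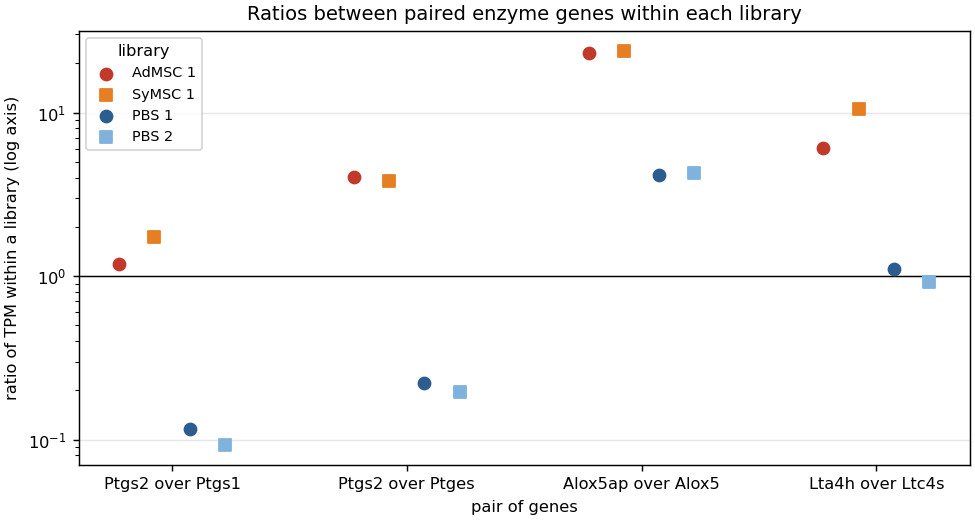
Ratio of TPM between paired enzyme genes within each library (log axis); each point is 1 library and the line marks equal TPM. The ratio of Ptgs2 to Ptgs1 was above 1 in the injected libraries (1.19 and 1.73) and below it with PBS (0.115 and 0.0927), and the ratio of Lta4h to Ltc4s was 6.08 and 10.5 after injection and 1.11 and 0.916 with PBS.

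The upstream stretches of Lta4h and Ltc4s are given in the same way, since these enzymes use the same substrate and their transcripts moved apart.
Lta4h (chr7:29856621-29856870, plus strand): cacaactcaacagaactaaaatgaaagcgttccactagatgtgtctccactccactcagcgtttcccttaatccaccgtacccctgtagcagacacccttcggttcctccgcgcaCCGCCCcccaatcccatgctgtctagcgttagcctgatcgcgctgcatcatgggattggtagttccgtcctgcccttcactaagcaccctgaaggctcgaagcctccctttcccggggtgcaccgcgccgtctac
Ltc4s (chr10:35063595-35063844, minus strand): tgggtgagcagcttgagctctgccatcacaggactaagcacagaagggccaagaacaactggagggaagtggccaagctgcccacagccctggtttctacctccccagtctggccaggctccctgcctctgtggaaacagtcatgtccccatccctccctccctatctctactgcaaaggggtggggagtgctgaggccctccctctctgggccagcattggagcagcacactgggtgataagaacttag
The Lta4h stretch held a GC box on the opposite strand 135 to 130 bases before the start, and the Ltc4s stretch held none of the 6 motifs. Of the remaining members, Ptges and Alox5 had an entry in the promoter table, each with a GC box, and Alox5 also had an NF-kB match 143 to 134 bases before its start. Ptgis, Hpgds, Alox5ap and Alox15 were not matched there.

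Alox15 (gene ID 81639), a lipoxygenase whose products include precursors of lipoxins, was low and did not separate the groups. It stood at 1.51 TPM in AdMSC 1 and 3.31 TPM in SyMSC 1, against 5.21 TPM in PBS 1 and 1.31 TPM in PBS 2. PBS 1 was the highest library and PBS 2 the lowest, so the spread within the PBS arm exceeded any difference between the arms (log2 change -0.20, SE 0.57, limma adjusted p = 0.791). The eosinophil and basophil list did not move as one, and PBS 1 and SyMSC 1 were the highest libraries for its granule genes Prg2 and Epx, which were not called. Prg2 stood at 1.24 TPM in AdMSC 1 and 7 TPM in SyMSC 1, against 15.79 TPM in PBS 1 and 1.85 TPM in PBS 2. Epx stood at 0.18 and 1.48 TPM in AdMSC 1 and SyMSC 1, against 4.89 and 0.26 TPM in PBS 1 and PBS 2. Ccr3, an eosinophil chemokine receptor, went another way, at 1.33 and 2.78 TPM in AdMSC 1 and SyMSC 1, against 0.07 and 0.22 TPM in PBS 1 and PBS 2; it was called higher (limma adjusted p = 0.00773) and had entered the test through the injected libraries alone. Il5ra, the other list gene with a row, was at 0.06 TPM or less in every library. The part of eosinophils in the Alox15 values was not tested.

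Ordered by level, Alox5ap led the 10 members in every library, and Lta4h was the second in every library except PBS 2. After injection Ptgs2 was the third at 24.68 and 33.27 TPM and Ptgs1 the fourth at 20.74 and 19.24 TPM. Alox5 (12.45 and 15.76 TPM) and Ltc4s (14.27 and 10.89 TPM) came next, and their order differed between AdMSC 1 and SyMSC 1. Ptges, Ptgis, Alox15 and Hpgds lay at 8.70 TPM or less in both injected libraries. With PBS, Ltc4s lay near Lta4h, just below it in PBS 1 (53.12 against 58.92 TPM) and just above it in PBS 2 (66.73 against 61.11 TPM), and Ptgs1 and Alox5 followed at nearly equal levels between 25.23 and 31.72 TPM. The summed TPM of the leukotriene branch was 404.43 in AdMSC 1 and 519.46 in SyMSC 1, against 247.73 in PBS 1 and 290.99 in PBS 2. Alox5ap alone was 71.6% and 72.2% of that sum after injection in AdMSC 1 and SyMSC 1, against 42.5% and 45.1% in PBS 1 and PBS 2, and Ltc4s was 3.53% and 2.10%, against 21.4% and 22.9%.

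Genes with a profile most like Ptgs2 and Alox5ap were sought by Euclidean distance over the 4 libraries, in log2(TPM + 1) centred on each gene's mean, among 9686 genes. Nearest to Ptgs2 were Dusp2 (distance 0.0799), a phosphatase gene of activated leukocytes, Tlr6 (0.107), a receptor gene for microbial lipopeptides, and Lilrb3b (0.127). Nearest to Alox5ap were Daglb (0.0269), Vsir (0.0729), an immune checkpoint gene, and Crlf3 (0.112). Daglb, a diacylglycerol lipase gene, stood at 24.45 and 32.48 TPM in AdMSC 1 and SyMSC 1, against 8.22 and 10.59 TPM in PBS 1 and PBS 2. With 4 libraries many genes share a profile, so these names are a description.

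The cell sources were set beside their own PBS library, with 1 library on each side and therefore no test. Genes reaching 5 TPM in either library counted as listed where TPM + 1 differed by a factor of 2 or more. In AdMSC 1 over PBS 1, Ptgs2 and Alox5ap were listed higher and Ptges, Alox15 and Ltc4s lower, where 11.1% of genes reaching 5 TPM were listed higher and 12.3% lower (23.4% in all). In SyMSC 1 over PBS 2, Ptgs2 and Alox5ap were listed higher and Ltc4s lower, where 12.9% were listed higher and 15.1% lower (28.0% in all). The log2 ratios of Ptgs2 were 2.68 in the Ad pair and 3.12 in the Sy pair, those of Alox5ap 1.45 and 1.51, and those of Ltc4s -1.83 and -2.51. In SyMSC 1 over AdMSC 1 Ptgis was the 1 listed member (log2 ratio -1.60), where 1.48% of genes were listed higher and 0.732% lower (2.22% in all). For the other 9 members SyMSC 1 and AdMSC 1 differed by log2 ratios between -0.36 (Ltc4s) and 0.78 (Alox15). The PBS libraries themselves, PBS 2 over PBS 1, gave log2 ratios between -1.43 (Alox15) and 0.93 (Hpgds) over the 10 members.

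Upstream of either branch, genes for the release and recycling of arachidonic acid moved both ways. Of 21 genes in that list, 19 had a row and 16 were tested. Of these, 8 were called higher, 3 lower and 5 were not called, with a median log2 change of 0.33. Counts in every list are to be read beside 23.7% higher and 24.7% lower over all tested genes. Pla2g4a, the cytosolic phospholipase that supplies most arachidonic acid for eicosanoids, stood at 38.91 and 32.21 TPM in AdMSC 1 and SyMSC 1, against 18.66 and 16.17 TPM in PBS 1 and PBS 2 (log2 change 0.99, SE 0.15, limma adjusted p = 0.00351). Pla2g7, which inactivates platelet-activating factor and oxidised phospholipids, showed the largest rise of the list at 160.67 and 233.22 TPM, against 6.90 and 5.92 TPM (log2 change 4.72, limma adjusted p = 0.000182). Lpcat2, which puts acyl chains back on lysophospholipids, was called higher (1.48), as was Daglb (1.50). Mgll, monoglyceride lipase, was called lower (-1.54). These lists were drawn up with earlier results of these data known.

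Partners and relatives of the lipoxygenases gave 3 higher (1 without SyMSC 1) and 2 lower of 7 tested. Cotl1, a protein that binds Alox5, stood at 577.67 and 544.17 TPM in AdMSC 1 and SyMSC 1, against 107.27 and 103.28 TPM in PBS 1 and PBS 2 (log2 change 2.40, limma adjusted p = 0.000239), and so rose while Alox5 fell. The glutathione transferase genes of the same superfamily as Ltc4s divided: Mgst1 (1.44) and Mgst2 (0.47) were called higher and Mgst3 lower (-2.04). Mgst2 stood at 67.06 and 86.55 TPM in AdMSC 1 and SyMSC 1, against 53.03 and 56.09 TPM in PBS 1 and PBS 2 (limma adjusted p = 0.047). With either rescaling, or with no filter, 2 genes of the list were called higher in place of 3. The Mgst1 call ended without AdMSC 1 (adjusted p = 0.133) or SyMSC 1 (0.166). Alox12, the platelet-type lipoxygenase, was at 1.71 and 1.5 TPM in AdMSC 1 and SyMSC 1, against 2.54 and 3.35 TPM in PBS 1 and PBS 2 (log2 change -0.59). Its limma call ended with each library left out (adjusted p from 0.0525 to 0.199), with no filter (0.0681) and with a pseudocount of 0.1 (0.0561).

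**Figure D4:**
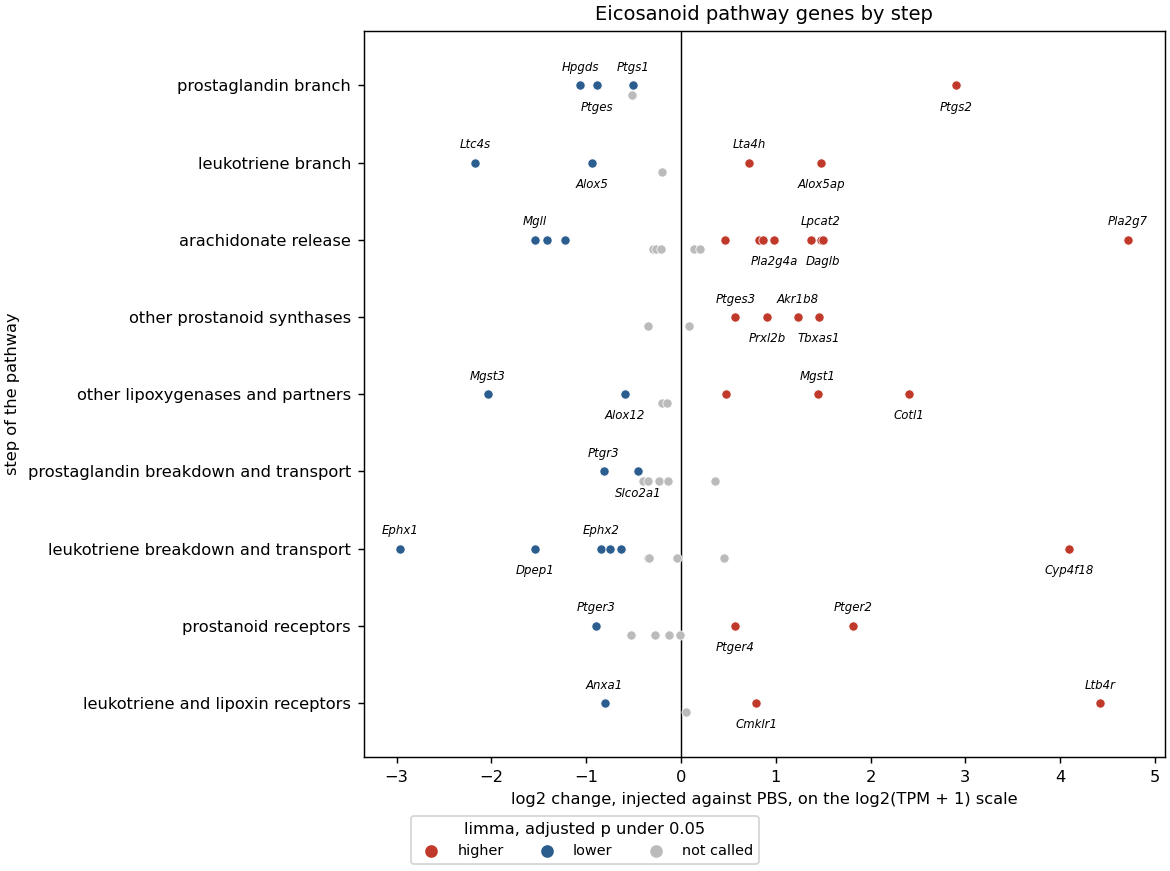
Log2 change, injected against PBS, of each tested gene of the eicosanoid pathway, in rows by step; colour gives the limma call and not-called genes are drawn slightly lower in their row. The largest rises were in Pla2g7 (4.72), Ltb4r (4.42) and Cyp4f18 (4.09). Of these, Ltb4r and Cyp4f18 could not have entered the test without the injected libraries. The largest fall was in Ephx1 (-2.96), an epoxide hydrolase gene not specific to leukotrienes.

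Of the genes that inactivate or move prostaglandins, 0 of 7 were called higher and 2 lower (Ptgr3 and Slco2a1), beside 23.7% higher and 24.7% lower over all tested genes. At an unadjusted p under 0.05 limma gave 0 higher and 2 lower among the 7. Hpgd, which starts the breakdown of prostaglandin E2, was not called, at 7.91 and 3.61 TPM in AdMSC 1 and SyMSC 1, against 8.60 and 4.89 TPM in PBS 1 and PBS 2 (log2 change -0.23, limma adjusted p = 0.663). The prostaglandin transporter gene Slco2a1 (-0.45) was lost with each library left out (adjusted p from 0.0515 to 0.143), and the reductase gene Ptgr3 (-0.82) without AdMSC 1 (0.0612), SyMSC 1 (0.0553) or PBS 2 (0.0839). Ptgr3 is listed in the table under its older symbol. Among 10 tested genes of leukotriene breakdown and transport, 1 was called higher and 5 lower (3 lower without PBS 2). Cyp4f18, a hydroxylase of leukotriene B4 in mouse neutrophils, stood at 19.03 and 60.27 TPM in AdMSC 1 and SyMSC 1, against 0.65 and 1.56 TPM in PBS 1 and PBS 2 (log2 change 4.09, SE 0.65, limma adjusted p = 0.0129). That call ended without PBS 1 (0.13) or PBS 2 (0.106). Cyp4f18 also could not have entered the test without the injected libraries, since PBS 1 was below 1 TPM. Dpep1, a dipeptidase of leukotriene D4, was called lower (-1.54) after passing the filter through the PBS libraries alone. Also called lower were the epoxide hydrolase genes Ephx1 (-2.96) and Ephx2 (-0.85), which are in the list but are not specific to leukotrienes.

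Among the receptors, that for leukotriene B4 stood out in size. Ltb4r was measured at 33.55 TPM in AdMSC 1 and 43.45 TPM in SyMSC 1, against 1.05 TPM in PBS 1 and 0.64 TPM in PBS 2 (log2 change 4.42, SE 0.20, limma adjusted p = 0.000204). Both injected libraries lay far above PBS. Ltb4r could not have entered the test without them, since PBS 2 was below 1 TPM. Cysltr1, a receptor for cysteinyl leukotrienes, had overlapping groups at 20.26 and 14 TPM in AdMSC 1 and SyMSC 1, against 15.02 and 17.48 TPM in PBS 1 and PBS 2, and was not called (log2 change 0.05, limma adjusted p = 0.841). Cmklr1, a receptor for chemerin and, as reported, resolvin E1, was called higher (0.79) and Anxa1, an anti-inflammatory ligand of the lipoxin receptor family, lower (-0.81). Of the prostanoid receptors 2 of 7 tested were called higher and 1 lower, beside 23.7% and 24.7% of all tested genes. Ptger2, a receptor for prostaglandin E2 that raises cyclic AMP, stood at 13.13 and 16.22 TPM in AdMSC 1 and SyMSC 1, against 3.02 and 3.88 TPM in PBS 1 and PBS 2 (log2 change 1.82, SE 0.19, limma adjusted p = 0.000981). Ptger4, the other receptor of that kind, had 17.99 and 17.23 TPM against 9.71 and 13.63 TPM (log2 change 0.57, limma adjusted p = 0.043). The Ptger4 call ended in limma with either rescaling (0.0509 and 0.0619), with no filter (0.0795), and without AdMSC 1 (0.128), SyMSC 1 (0.108) or PBS 1 (0.211). Ptger3, which lowers cyclic AMP, was below 2 TPM in every library and was called lower (-0.90), having passed the filter through the PBS libraries alone, except without AdMSC 1 (adjusted p = 0.0613).

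Marker genes of cell types also differed between the injected and PBS libraries. Fewer cells of a type and less RNA per cell cannot be told apart in bulk tissue. Marker genes of neutrophils summed to 2199.86 and 3819.97 TPM in AdMSC 1 and SyMSC 1, against 394.62 and 107.90 TPM in PBS 1 and PBS 2, with 4 of 10 called higher (2 without AdMSC 1 and 1 without SyMSC 1). Most of each neutrophil sum was S100a8 and S100a9. Of the neutrophil genes not called, Mpo, Ngp and Camp were highest in PBS 1, and Elane, Mmp8 and Fcnb in SyMSC 1. Marker genes of monocytes and macrophages summed to 25807 and 34944 TPM, against 9803 and 11106 TPM, with 9 of 11 higher. Not called were Adgre1 (log2 change -0.05) and Cd163 (-0.59). Cd163 was lower in both injected libraries, at 9.55 and 11.42 TPM in AdMSC 1 and SyMSC 1, against 13.44 and 19.65 TPM in PBS 1 and PBS 2. In the other direction, mast cell genes summed to 51.79 and 21.82 TPM in AdMSC 1 and SyMSC 1, against 100.77 and 122.53 TPM in PBS 1 and PBS 2, with 4 of 7 tested called lower (7 without AdMSC 1 and 2 without PBS 2), of which Ms4a2 passed the filter through the PBS libraries alone. Fibroblast genes had 9 of 11 lower, and endothelial and mural genes 8 of 8 lower each. Over all tested genes 23.7% were called higher and 24.7% lower. None of the lists had a gene at 0 in every library. Blood, muscle and adipocyte genes differed within the PBS arm. Hba1 stood at 4917.54 and 10294.56 TPM in AdMSC 1 and SyMSC 1, against 20160.94 and 7064.26 TPM in PBS 1 and PBS 2. Skeletal muscle genes summed to 119.55 and 161.27 TPM in the same order, against 1641.93 and 623.04 TPM. Adipocyte genes summed to 257.67 and 296.9 TPM in AdMSC 1 and SyMSC 1, against 580.43 and 1570.3 TPM in PBS 1 and PBS 2.

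**Figure D5:**
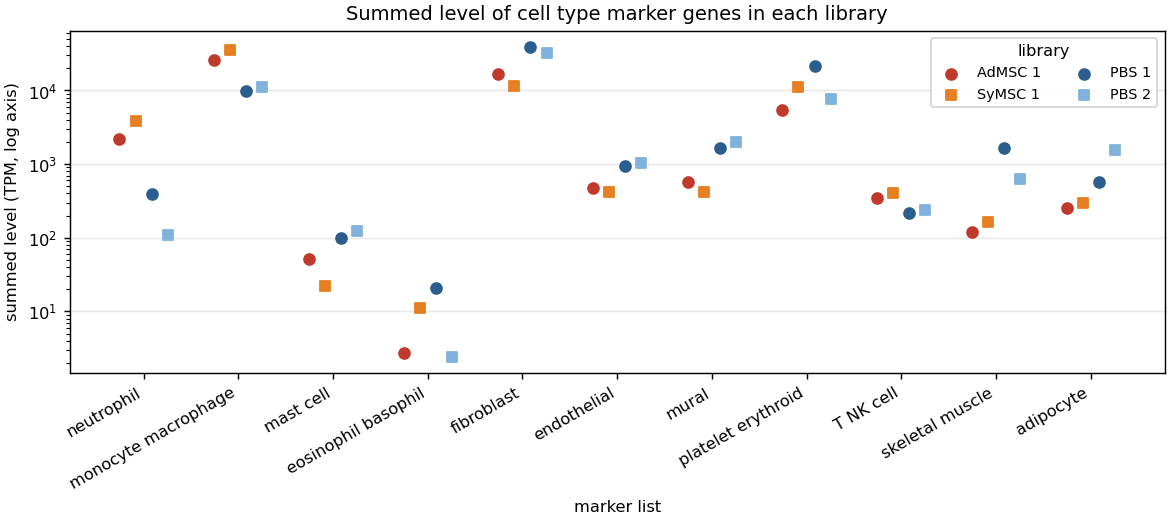
Summed TPM (log axis) of the marker genes of each cell type in the 4 libraries; each point is 1 library. Neutrophil and monocyte and macrophage sums were higher in both injected libraries, mast cell, fibroblast, endothelial and mural sums were lower, and the eosinophil and basophil sum was highest in PBS 1 (20.75 TPM) and SyMSC 1 (11.27 TPM).

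Set against these sums, the members differed. Alox5ap had 11.2 TPM per 1000 TPM of monocyte and macrophage markers in AdMSC 1 and 10.7 in SyMSC 1, against 10.7 in PBS 1 and 11.8 in PBS 2, so its groups overlapped on that scale. That sum is mostly Lyz2, and without Lyz2, a choice made after seeing the data, the values were 44.5 and 48.5 in AdMSC 1 and SyMSC 1, against 64.2 and 70.2 in PBS 1 and PBS 2. Alox5 had 0.482 and 0.451 TPM per 1000 TPM of the full macrophage list in AdMSC 1 and SyMSC 1, against 2.57 and 2.76 in PBS 1 and PBS 2. Ltc4s had 0.553 and 0.312, against 5.42 and 6.01, so both genes were lower after injection relative to these markers, with Lyz2 or without it. Lta4h, which rose in TPM, had 3.36 and 3.28 per 1000 TPM of the full list in AdMSC 1 and SyMSC 1, against 6.01 and 5.50 in PBS 1 and PBS 2, so it was lower relative to these markers. Hpgds per 1000 TPM of mast cell markers had overlapping groups, at 11.6 and 15.6 in AdMSC 1 and SyMSC 1, against 12.1 and 26.4 in PBS 1 and PBS 2. Ltc4s per 1000 TPM of mast cell markers stood at 276 and 499 in AdMSC 1 and SyMSC 1, against 527 and 545 in PBS 1 and PBS 2, where SyMSC 1 was close to PBS. Ptges per 1000 TPM of fibroblast markers also overlapped, at 0.364 and 0.756 in AdMSC 1 and SyMSC 1, against 0.346 and 0.472 in PBS 1 and PBS 2. Ptgs2 per 1000 TPM of neutrophil markers stood at 11.2 and 8.71, against 7.60 and 27.2, since those markers differed several times between the PBS libraries. Ptgs1, which fell in TPM, was higher relative to fibroblast markers, at 1.23 and 1.67 per 1000 TPM in AdMSC 1 and SyMSC 1, against 0.663 and 0.990 in PBS 1 and PBS 2. The part of each cell type in the change of each enzyme gene was not tested.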

How the data were processed

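Bulk messenger RNA of 4 rat synovium libraries was analysed from 1 table of TPM values that the authors deposited, named as TPM per the file headers and written with 2 decimals; each column has the same total over 17899 rat genes. Per the labels' protocols, RNA was captured with oligo-dT beads, fragmented, copied with random primers and a dUTP second strand, and sequenced on a BGISEQ-500. HISAT2 2.0.4 and the build Rnor_6.0 are named in the submitters' processing notes, with no role stated. The sources used here do not name the counting tool, annotation, use of strand or any separation of human reads. TPM shares sum to a constant, so genes are pushed down where abundant ones go up. Depth is unknown.

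Groups came from the treatment label and title pairs from the titles. The 13371 genes that reached 1 TPM in 2 or more libraries were tested as log2(TPM + 1) with limma 3.58.1 in R 4.3.3 (trend and robust options, 2 residual degrees of freedom), fitted across all tested genes; the test was tried on simulated data. Pairs of single libraries were compared as ratios of TPM + 1 without a test. The 10 members and the lists of pathway and marker genes (170 of 178 entries matched by symbol or gene ID) were chosen with earlier results of these data known. Named list genes were the called ones, up to 4 with the largest change, and 9 fixed names. Mgst2 was named beyond that rule. 16718 gene IDs were found in a RefSeq table of GRCr8, used for names and overlapping gene models; upstream sequences came from RefSeq's promoter table of that build, with motifs chosen after the sequences were seen. Alternatives were median-ratio and upper-quartile scaling, no filter or 5 TPM, a pseudocount of 0.1, the title pair as a block, each library left out, and exchanged PBS libraries. 0 sample columns were left unused.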

Additional observations from a re-analysis of the deposited data

Results flagged for a closer look

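Among the members and the named pathway genes, the title pairs gave opposite directions for 3. This difference was not tested because each pair holds 1 injected and 1 PBS library. Cell type marker genes are not in that count, and several of them split in the same way. Hba1 had log2 ratios of -2.04 in the Ad pair and 0.54 in the Sy pair, and Ngp -2.82 and 2.25. For Ptgis, prostacyclin synthase, the log2 ratio was 0.25 in AdMSC 1 over PBS 1 and -1.28 in SyMSC 1 over PBS 2, a difference of -1.53 (Sy pair minus Ad pair). For Alox15 it was -1.31 in the Ad pair and 0.90 in the Sy pair, a difference of 2.21, and for the receptor gene Cysltr1 it was 0.41 in the Ad pair and -0.30 in the Sy pair, a difference of -0.71. With the PBS libraries exchanged, the log2 ratio of Alox15 in AdMSC 1 was 0.12 and that in SyMSC 1 was -0.53, so its directions rest on which PBS library is used. The Ptgis ratios kept their signs, at 0.32 in AdMSC 1 over PBS 2 and -1.35 in SyMSC 1 over PBS 1.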

How the results depend on the processing

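The direction of every called member was the same in limma under all alternatives in which it was tested, and the calls of Ptgs2, Ptges, Alox5, Alox5ap and Ltc4s held under each. Over the members and alternatives, 87 comparisons kept their side of the threshold, 10 lost it and 1 gained it (Ptgis without AdMSC 1). The number of prostaglandin members called lower was 1 in place of 3 with no filter on low values, where Ptgs1 and Hpgds were lost, and between 1 and 3 when a library was left out. The number of leukotriene members called higher was between 1 and 2 when a library was left out. The members listed lower in SyMSC 1 were 2 in place of 1 when PBS 1 took the place of PBS 2, since Ptgis then passed 5 TPM. The log2 ratio of Alox15 in AdMSC 1 turned to 0.12 when PBS 2 took the place of PBS 1. With 5 TPM as the filter, Hpgds and Alox15 were not tested. With a library left out, the lone library of its arm is assumed to vary like the other arm. With the title pair as a replicate block, the prostaglandin members called lower were 2 in place of 3, with Hpgds lost (adjusted p = 0.0643); of the other named genes Alox12 (0.0687) and Ptger4 (0.0567) lost their call. The labels do not say what the title pairing stands for; deviations of AdMSC 1 and PBS 1 from their arm means correlated at r = 0.117 over 13371 genes, which are not independent replicates. No scaling moved the median log2 change of all tested genes by more than 0.1. Unknown depth limits what can be said of Hpgds and Alox15, the lowest members.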
